A study of Homo sapiens with 6 samples.

Results

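The Wnt ligands, their receptors and the feedback genes of the pathway were examined after knockdown of the transcription factor SOX2 in PA1, an established cell line from a human ovarian teratocarcinoma. Members were taken by gene symbol from the first column of the count table: the WNT ligands, the FZD (frizzled) receptors, the co-receptors LRP5 and LRP6, the R-spondins and their receptors LGR4, LGR5 and LGR6, the ubiquitin ligases RNF43 and ZNRF3, the inhibitors AXIN1, AXIN2, NKD1 and NKD2, and the nuclear factors LEF1 and TCF7. The rule found 46 members among 59653 gene symbols. The cells of both groups were wildtype PA1 cells, transfected in adherent culture with small interfering RNA (siRNA), either a negative control or one directed at SOX2, for which 2 reagents are named without saying whether they were pooled. After 24 h they were moved to poly-HEMA-coated plates, to which cells do not attach, and RNA was taken after a further 72 h of growth in suspension. The cells given SOX2 siRNA are called knockdown here. Each group had 3 libraries, numbered 1 to 3, of poly(A)-selected RNA. PA1 is 1 cell line, and nothing in the labels says that the 3 libraries came from separate cultures, so the p-values measure only the spread between these libraries, which may be technical.

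Wnt proteins are secreted, lipid-modified signals that bind a frizzled receptor together with LRP5 or LRP6. In the canonical branch this binding stops the AXIN-containing complex from marking beta-catenin for destruction, and beta-catenin then enters the nucleus and acts with TCF/LEF proteins. RNF43 and ZNRF3 remove frizzled receptors from the cell surface, and R-spondins bound to LGR4, LGR5 or LGR6 take these ligases away. AXIN2, NKD1, RNF43, ZNRF3 and LEF1 are themselves often switched on by the pathway and so serve as its feedback genes. In pluripotent cells and early embryos the pathway is known for its part in the choice of mesendoderm and in posterior patterning.

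Library totals ranged from 25152313 to 32753184 counts, and 3 counts, the floor used for detection, equalled 0.0909 to 0.120 CPM, the usual count unit relative to the scaled library total. Such limits cover counting error only. SOX2 fell to 20.5% of its control level, from 255 ± 10.1 to 52.5 ± 2.21 CPM (SD, n = 3; adjusted p = 5.97e-16 in edgeR's quasi-likelihood test). Markers of pluripotent cells summed to 2528 to 2607 CPM in control and 2420 to 2469 CPM in knockdown libraries, with 3 of 7 tested markers called higher, 1 lower and TDGF1 near 0. Within this sum LIN28A rose from 706 to 1148 CPM and PODXL fell from 1316 to 671 CPM, and DNMT3B and POU5F1 also rose. The 8 mesendoderm markers summed to 11.6 to 12.3 CPM and to 62.4 to 70.6 CPM, with 3 of 4 tested markers called higher and TBXT at 0 in every library. Those called were EOMES (4.57 to 34.5 CPM), CER1 (3.60 to 20.4 CPM) and MIXL1 (1.85 to 8.88 CPM). GATA6 was not called, and GSC, SOX17 and FOXA2 had too few counts to be tested. The 8 neural progenitor markers summed to 1060.2 to 1077 CPM and to 674 to 689 CPM, with 5 of 6 tested markers called lower and SOX1 at 0. The 4 endothelial markers, all of them tested and called lower, summed to 123 to 128 and to 92.8 to 96.9 CPM, and the 5 fibroblast markers, led by COL1A1, to 305 to 352 and to 400.3 to 452 CPM. Of 4 tested fibroblast markers 2 were called higher, COL1A1 and PDGFRA. Leukocyte markers summed to at most 1.57 CPM, with 1 of 2 tested, CD14, called higher at 0.672 CPM in knockdown cells. For all these marker calls the share to compare is 28.2% of all genes tested. The part of these marker differences in the Wnt gene values described next was not tested. In bulk RNA, fewer cells of a kind and less RNA per cell cannot be told apart.

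Of the 46 members, 32 had enough counts to be tested and 22 of those were called, that is, had a Benjamini-Hochberg adjusted p under 0.05 by edgeR's quasi-likelihood test. This is 68.8% of the tested members, beside 28.2% of the 17592 genes tested. Of the 32 tested members 14 were called lower, beside 13.4% of all genes, and 8 of the 32 were called higher, beside 14.8%. A change of at least 2-fold was called for 7 of the 32, WNT1, WNT7B, WNT8A, WNT8B, WNT10B, FZD8 and LGR4, and for 3.17% of all genes. Groups without overlapping libraries were found for 24 of the 32 tested members and for 41.8% of all genes. The median log2 fold change of the tested members was -0.09, beside -0.00085 for all genes, while the median absolute change was 0.37 for members and 0.15 for all genes. These counts describe members that passed a filter on low counts, and WNT1, WNT7B and WNT8B reached it in all 3 libraries of 1 group only, so that passing rested on the group in which they were higher. All members together took 0.178% to 0.180% of the counts in control libraries and 0.147% to 0.150% in knockdown libraries, without overlap of the groups.

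**Figure D1:**
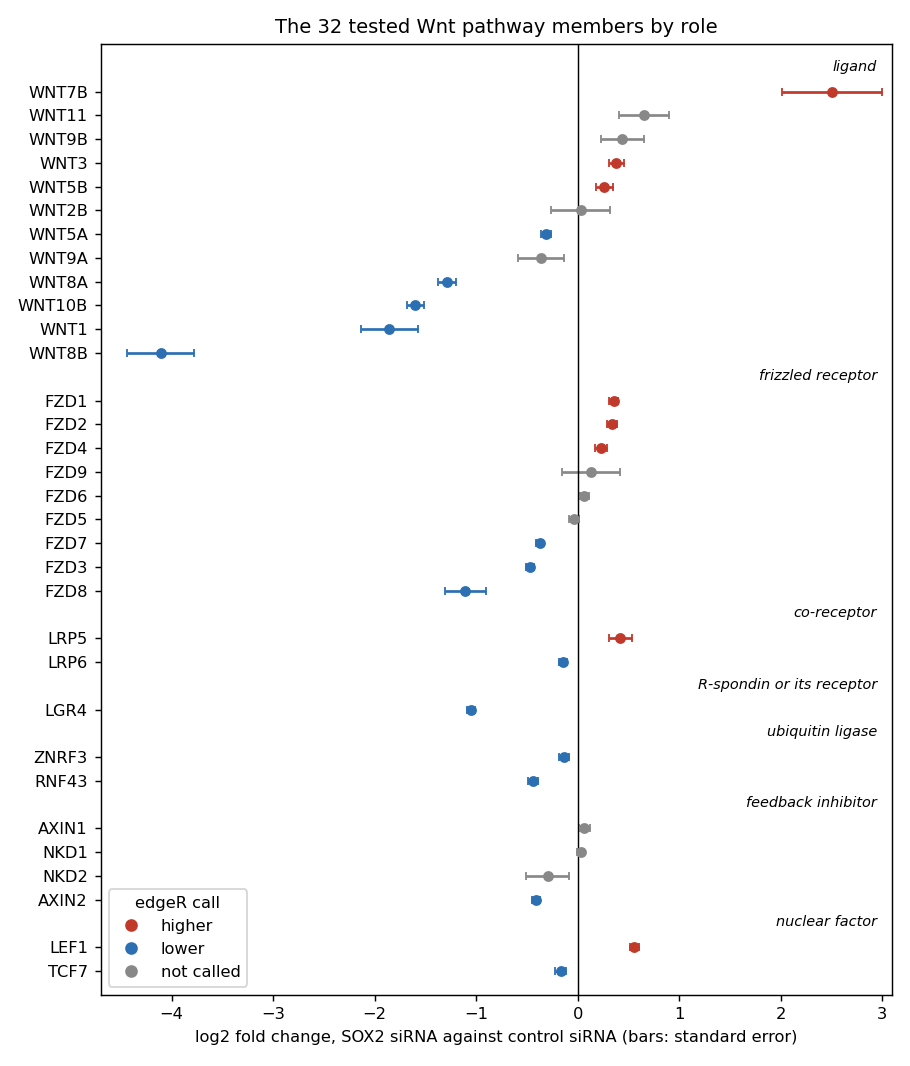
Log2 fold change of knockdown against control (x axis) for the 32 tested members, grouped by role (y axis), with 3 libraries per group. Points are edgeR estimates, bars are standard errors and colours give the call. WNT8B lies farthest to the left at -4.11 and WNT7B farthest to the right at 2.51, and most other members lie between -1 and 1.

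The sequence before the transcription start is shown for called members with the largest change in their role, where the window held no annotated exon of the same gene, so that the composition of these starts can be compared. Sequences are the 250 bases upstream of the RefSeq start on GRCh38.p14, printed 5′ to 3′ on the gene's own strand. WNT8B is at chr10:100462759-100463008 on the plus strand and FZD8 at chr10:35642297-35642546 on the minus strand. LGR4 is at chr11:27472791-27473040 on the minus strand, in a window that also holds an exon of AC100771.2. LRP5 is at chr11:68312341-68312590 on the plus strand. RNF43 is at chr17:58402722-58402971 on the minus strand, before an inner start of the gene, since the window of its outer start holds an RNF43 exon. Capitals mark a POU octamer, the binding word of POU5F1 and related factors, which was found in LGR4 alone of the 5 sequences.
WNT8B: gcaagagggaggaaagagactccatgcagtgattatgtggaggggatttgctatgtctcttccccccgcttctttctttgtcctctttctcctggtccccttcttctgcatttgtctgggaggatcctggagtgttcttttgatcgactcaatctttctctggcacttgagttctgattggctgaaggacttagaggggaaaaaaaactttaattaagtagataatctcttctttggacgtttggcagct
FZD8: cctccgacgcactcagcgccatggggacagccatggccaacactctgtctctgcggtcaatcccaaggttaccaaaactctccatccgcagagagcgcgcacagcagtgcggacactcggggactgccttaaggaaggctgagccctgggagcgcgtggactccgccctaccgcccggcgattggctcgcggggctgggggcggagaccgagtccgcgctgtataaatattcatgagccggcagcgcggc
LGR4: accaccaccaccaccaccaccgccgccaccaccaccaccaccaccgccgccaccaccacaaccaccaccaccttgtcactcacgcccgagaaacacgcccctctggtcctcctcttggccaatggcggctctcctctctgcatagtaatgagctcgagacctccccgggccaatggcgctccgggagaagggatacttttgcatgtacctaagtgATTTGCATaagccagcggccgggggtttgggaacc
LRP5: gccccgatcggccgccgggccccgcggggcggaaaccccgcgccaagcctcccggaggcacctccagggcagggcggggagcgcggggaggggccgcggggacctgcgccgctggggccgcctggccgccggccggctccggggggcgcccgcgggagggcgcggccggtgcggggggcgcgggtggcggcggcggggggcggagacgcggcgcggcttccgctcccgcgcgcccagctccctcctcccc
RNF43: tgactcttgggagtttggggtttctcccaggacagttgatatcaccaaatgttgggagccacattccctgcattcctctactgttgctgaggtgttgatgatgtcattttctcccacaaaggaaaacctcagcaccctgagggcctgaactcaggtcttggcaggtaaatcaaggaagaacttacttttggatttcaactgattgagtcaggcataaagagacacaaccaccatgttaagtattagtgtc

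The WNT8B window was poor in G and C, at 45.2% with 3 CpG dinucleotides, whereas the LRP5 window had 87.2% and 43. FZD8 had 65.2% with 24 CpG, LGR4 62.0% with 14 and the RNF43 window 45.2% with 0. The median over all 35116 RefSeq windows was 58.0% with 11 CpG. Over the 39 windows of the 32 members included here it was 68.8% with 22. Chromosome 8, where FZD3, FZD6 and RSPO2 lie, was left out of the member windows but not of all windows. The TCF/LEF words CTTTGAT and CTTTGAA, searched on both strands, occurred in 0 of the 39 member windows and in 5.94% of all windows. The feedback genes AXIN2, NKD1 and ZNRF3 had no window here and were not searched, nor were WNT7B, WNT10B, FZD2, FZD3, FZD7 and LRP6. The only LEF1 window, chr4:108166302-108166551 on the minus strand, held a LEF1 exon and lay inside the gene's GENCODE span, which ends at 108168956. The outer start of LEF1 was therefore not searched. Several other member windows also held an exon of their own gene. The SOX words CATTGTT and CTTTGTT, which share letters with the TCF/LEF words but cannot match at the same position, occurred in 1 member window, at a start of TCF7, and in 7.10% of all. The octamer ATGCAAAT occurred in 1 member window, that of LGR4, whose copy ATTTGCAT on the opposite strand begins 35 bases before the start, and in 1.63% of all. A missing word says only that these letters are not in this window.

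Among the 19 ligands, expression of WNT8B, WNT10B, WNT8A and WNT1 fell by 2-fold or more and WNT5A fell less, while WNT3, WNT5B and the barely expressed WNT7B rose. These 5 lower and 3 higher calls were made among 12 tested ligands, 66.7% of them, beside 28.2% of all genes tested. WNT8B, a ligand of the embryonic forebrain, gave 62, 47 and 43 counts in the control libraries but 2, 4 and 3 in the knockdown libraries. All knockdown libraries were thus near the limit of 3 counts and far below every control library. The mean of 1.75 ± 0.225 CPM dropped to 0.0968 ± 0.0289 (SD, n = 3; log2 fold change -4.11 with SE 0.333; edgeR adjusted p = 4.65e-08). On pooled counts the control level was 17.9-fold the knockdown level, with an exact 95% interval of 9.21 to 39.99 that covers counting error only.

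WNT10B, a canonical ligand known for holding back fat cell formation, was the ligand with the highest level per kilobase of transcript in control cells. Its CPM was 19.2, 18.5 and 21.5 in control and 6.59, 6.06 and 6.90 in knockdown libraries, so that the groups lay well apart (log2 fold change -1.60 with SE 0.0831; edgeR adjusted p = 1.21e-10). WNT8A, an early embryonic ligand of the gastrula, had 12.1, 12.1 and 11.2 CPM in control and 4.70, 4.82 and 5.05 CPM in knockdown libraries, again without overlap (log2 fold change -1.28 with SE 0.0893; edgeR adjusted p = 6.64e-09). WNT1, needed for the midbrain and hindbrain, was scarce, with 62, 32 and 51 counts in control and 13, 20 and 9 counts in knockdown cells (1.64 ± 0.319 and 0.450 ± 0.160 CPM, SD, n = 3; log2 fold change -1.86 with SE 0.282; edgeR adjusted p = 8.11e-05). Its highest knockdown library stayed below its lowest control library. WNT5A, the main ligand of the non-canonical branch, had 35.0, 35.9 and 35.1 CPM in control and 27.5, 29.2 and 28.6 CPM in knockdown libraries, a fall of 0.31 on the log2 scale (SE 0.0502; edgeR adjusted p = 1.37e-04).

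WNT7B, a ligand of lung and kidney epithelium, had 3, 1 and 2 counts in control and 12, 15 and 11 counts in knockdown libraries. The groups did not overlap, but the level remained low at 0.410 ± 0.0490 CPM (SD, n = 3) in knockdown cells. The pooled ratio was 5.96, with an exact 95% counting interval of 2.50 to 17.3 (edgeR adjusted p = 8.94e-04). WNT3, a ligand required for the primitive streak, had 13.6, 11.6 and 13.3 CPM in control and 16.7, 16.7 and 16.8 CPM in knockdown libraries (log2 fold change 0.38 with SE 0.0729; edgeR adjusted p = 7.57e-04). WNT5B, a close relative of WNT5A, moved the other way from it, with 8.39, 8.18 and 8.41 CPM in control and 10.3, 9.68 and 10.01 CPM in knockdown cells (log2 fold change 0.26 with SE 0.0810; edgeR adjusted p = 0.0218). The WNT5B call was kept in 10 of 15 alternative analyses. It was lost with DESeq2's Wald test (adjusted p = 0.121) and without control replicate 2 (0.0643) or 3 (0.0542) or knockdown replicate 1 (0.0618) or 3 (0.0524), at a log2 fold change of 0.24 to 0.28 throughout.

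The other 4 tested ligands were not called. WNT9B, the most abundant of them over all libraries, had 1.36, 1.08 and 1.245 CPM in control and 1.39, 1.73 and 1.91 CPM in knockdown cells, groups that just failed to touch (log2 fold change 0.44 with SE 0.209; edgeR adjusted p = 0.133). WNT11 stood at a log2 fold change of 0.65 (SE 0.246; edgeR adjusted p = 0.0573), which was called only when at least 10 counts were required in every library (adjusted p = 0.0357). WNT9A and WNT2B had log2 fold changes of -0.36 (SE 0.227) and 0.03 (SE 0.290). These 4 genes had 15 to 57 counts per library. The remaining 7 ligands were not tested. WNT2 and WNT16 had 0 counts in every library, and WNT3A, WNT6, WNT7A and WNT10A had 0 to 4 counts per library. WNT4, with 1, 6 and 7 control counts and 0, 0 and 1 knockdown counts, was called when no filter beyond 1 count was used (edgeR adjusted p = 0.0142). Its groups overlapped, at 0.0303 CPM in control replicate 1 and 0.0335 CPM in knockdown replicate 3.

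**Figure D2:**
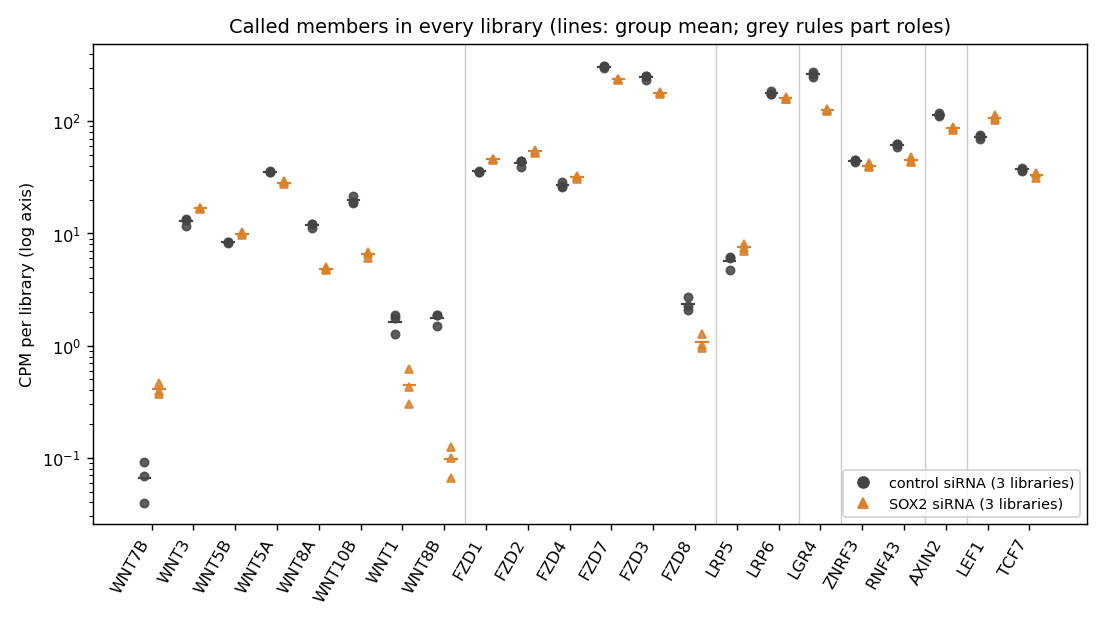
CPM on a log axis (y axis) of the 22 called members (x axis) in each of the 3 control siRNA (circles) and 3 SOX2 siRNA (triangles) libraries, with short lines at the group means and grey rules between roles. WNT8B falls from 1.75 to 0.0968 CPM, and LGR4 from 263 to 126 CPM with each group's libraries close together.

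Levels were compared between genes as CPM per kilobase of the longest coding transcript in GENCODE 29. On this scale the 19 ligands summed to 33.4, 32.02 and 33.6 in control and 21.7, 22.0 and 22.5 in knockdown libraries, so that 66.9% of the control sum remained. In control cells WNT10B stood first at 8.69 ± 0.688, followed by WNT8A at 7.67 ± 0.337, WNT5A at 5.72 ± 0.0780, WNT3 at 3.82 ± 0.327 and WNT5B at 3.62 ± 0.0544 CPM per kilobase (SD, n = 3). Each of these exceeded the next in every control library pair, except that WNT3 and WNT5B overlapped. After knockdown the order of the means was WNT3 at 4.99, WNT5A at 4.602, WNT5B at 4.34, WNT8A at 3.15 and WNT10B at 2.87, with WNT5A and WNT5B overlapping. The order depended on the transcript length. With the median coding transcript length of each gene the knockdown shares of the ligand sum were 22.3% for WNT5B, 20.1% for WNT3, 19.0% for WNT5A, 14.5% for WNT10B and 12.9% for WNT8A, and in control WNT5B (12.5%) stood above WNT3 (10.4%). The share of WNT1, WNT8A, WNT8B and WNT10B together, chosen after their values were seen, was 56.02% ± 0.119 of the ligand sum in control and 29.1% ± 0.198 in knockdown libraries (SD, n = 3). The other 15 ligands summed to 14.5 ± 0.331 and 15.7 ± 0.281 CPM per kilobase.

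WNT genes lie in neighbouring pairs at 4 places in the genome, a known arrangement of the family, and the pairs were read side by side in GENCODE 29 coordinates (GRCh38). Of these pairs, WNT6 and WNT10A were not tested, and of WNT3A and WNT9A only WNT9A was tested, without a call. WNT10B and WNT1, on opposite strands of chr12:48965340-48981676 and 6689 bases apart, both fell. Within 100 kb of WNT10B, 12 other genes including WNT1 were tested and 4 were called, a share near the 28.2% of all genes. All 4 were lower, namely WNT1, RND1 (log2 fold change -0.88), FKBP11 (-0.50) and ARF3 (-0.26). The GENCODE spans of WNT3 and WNT9B lie 46 bases apart on opposite strands of chr17:46762506-46886730. Their RefSeq upstream windows are farther apart, at chr17:46818693-46818942 and chr17:46851333-46851582. Their log2 fold changes were the 0.38 and 0.44 given above, of which the first was called. WNT8B had 6 tested neighbours within 100 kb, with log2 fold changes of -0.24 to 0.11, of which 1 was called higher and 2 lower. WNT8A had 5, at -0.40 to 0.10, of which 1 was called, lower. Of all genes tested, 28.2% were called. None of these neighbours changed by as much as WNT8B or WNT8A, but a called change of at least 2-fold was found for only 3.17% of all genes. Smaller changes nearby were thus likely in advance.

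**Figure D3:**
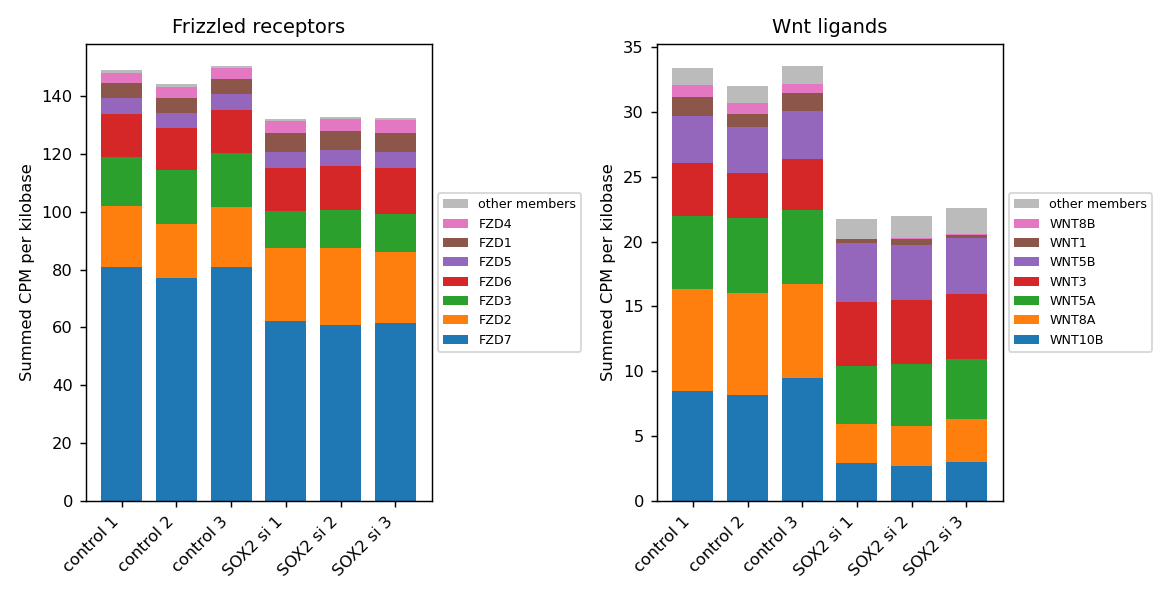
Summed CPM per kilobase (y axis) of the frizzled receptors (left) and the Wnt ligands (right) in each library (x axis, 1 bar per library), with coloured segments for members above 2% of the control sum. The ligand bars fall from 33.4, 32.02 and 33.6 to 21.7, 22.0 and 22.5, mainly through the WNT10B and WNT8A segments, while the frizzled bars fall less.

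Frizzled receptors, the seven-pass membrane proteins that bind Wnt, split into 3 that fell, FZD3, FZD7 and FZD8, and 3 that rose, FZD1, FZD2 and FZD4, among 9 tested. The called receptors are 66.7% of those tested, beside 28.2% of all genes tested. FZD7, a receptor known from pluripotent stem cells, had the highest frizzled level per kilobase. Its CPM was 312, 298 and 312 in control and 239.6, 235 and 237 in knockdown libraries (log2 fold change -0.37 with SE 0.0344; edgeR adjusted p = 2.30e-07). FZD3, known for guiding axons through the polarity branch, had 233, 254 and 255 CPM in control and 176, 181 and 179 CPM in knockdown cells (log2 fold change -0.47 with SE 0.0392; edgeR adjusted p = 7.03e-08). FZD8 was scarce, with 89, 56 and 60 counts in control and 29, 33 and 38 counts in knockdown libraries, and fell most of the receptors (means of 2.34 ± 0.323 and 1.08 ± 0.165 CPM, SD, n = 3; log2 fold change -1.11 with SE 0.202; edgeR adjusted p = 4.66e-04). For each of these 3 receptors every knockdown library lay below every control library.

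The receptors that rose did so by less than 1.3-fold. FZD1 had 35.7, 36.1 and 35.4 CPM in control and 44.8, 46.3 and 46.0 CPM in knockdown libraries (log2 fold change 0.36 with SE 0.0455; edgeR adjusted p = 1.21e-05). FZD2, which with FZD1 and FZD7 forms the subfamily of closest sequence, had 44.1, 39.5 and 44.1 CPM in control and 53.7, 56.04 and 51.7 CPM in knockdown cells (log2 fold change 0.34 with SE 0.0522; edgeR adjusted p = 9.67e-05). FZD4, which also binds norrin in the retina, had 26.4, 26.1 and 28.7 CPM and 31.7, 30.7 and 32.8 CPM (log2 fold change 0.23 with SE 0.0556; edgeR adjusted p = 0.00482). An exon of FZD4 overlaps PRSS23 on the opposite strand, and PRSS23 itself fell (log2 fold change -0.65). The use of strand in counting is not given in the sources used here, so the FZD4 value is uncertain to that extent. FZD6 was not called, with 56.2, 54.9 and 56.6 CPM and 55.9, 58.3 and 61.2 CPM (log2 fold change 0.06, SE 0.0452). FZD5 and FZD9 were not called either, at -0.04 (SE 0.0491) and 0.13 (SE 0.282), and FZD10 had 1 count in 1 library and was not tested.

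Per kilobase, the frizzled receptors summed to 149, 144 and 150.5 CPM in control and 132, 133 and 132 CPM in knockdown libraries, 89.5% of control. FZD7 made up 53.9% ± 0.435 of the control sum and 46.5% ± 0.575 of the knockdown sum (SD, n = 3). FZD2 rose from 13.6% ± 0.567 to 19.3% ± 0.741 and FZD3 went from 12.2% ± 0.727 to 9.83% ± 0.117. In control cells the order per kilobase was FZD7, FZD2, FZD3, FZD6, FZD5, FZD1, FZD4, FZD8, FZD9 and FZD10, with no overlap of control libraries between neighbours in that order.

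The co-receptors moved in opposite directions. LRP6, which carries most of the co-receptor transcript at 17.7 ± 0.706 CPM per kilobase in control cells against 1.09 ± 0.150 for LRP5 (SD, n = 3), fell slightly. It had 174, 186 and 174 CPM in control and 157, 159.6 and 164 CPM in knockdown libraries (log2 fold change -0.15 with SE 0.0384; edgeR adjusted p = 0.00762). LRP5, known for its part in bone mass, rose from 6.12, 6.03 and 4.74 CPM to 8.12, 7.05 and 7.46 CPM (log2 fold change 0.42 with SE 0.113; edgeR adjusted p = 0.00948). The LRP5 call was lost without control replicate 3, its lowest library (0.31, adjusted p = 0.0629).

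Of the R-spondin arm, LGR4 was the 1 member with more than 11 counts in any library. LGR4 is the R-spondin receptor of widest expression in adult and embryonic tissues. Its CPM was 249.5, 275 and 264 in control and 124, 128 and 127 in knockdown libraries, a fall to 48.1% of control (log2 fold change -1.05 with SE 0.0400; edgeR adjusted p = 1.86e-12). Both groups were tight, and the lowest control library was far above the highest knockdown library. The 3 tested genes within 100 kb of LGR4 had log2 fold changes of -0.30 to 0.20, with 1 called higher and 1 lower, where 28.2% of all genes were called. The intestinal stem cell receptor LGR5 had 0 to 4 counts and LGR6 had 4 to 9. The ligands RSPO1, RSPO2 and RSPO4 had 0 to 5 counts, and RSPO3 had 8, 3 and 4 in control and 8, 11 and 10 in knockdown libraries. None of these 6 genes was tested.

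The ubiquitin ligases that clear frizzled receptors were both called lower. RNF43 had 62.2, 59.0 and 63.0 CPM in control and 44.2, 47.7 and 43.8 CPM in knockdown libraries, without overlap (log2 fold change -0.44 with SE 0.0480; edgeR adjusted p = 1.77e-06). Exons of RNF43 overlap SUPT4H1 and AC004687.2 on the same strand and TSPOAP1-AS1 on the other, which makes its count uncertain to that extent; none of the 3 was called. ZNRF3 had 44.7, 43.0 and 45.3 CPM and 39.0, 42.3 and 39.8 CPM (log2 fold change -0.14 with SE 0.0487; edgeR adjusted p = 0.0442). The ZNRF3 libraries came close to touching, and the call was kept in 7 of 15 alternative analyses. It was lost with DESeq2's Wald test (adjusted p = 0.108), limma-voom (0.0524), no filter beyond 1 count (0.0721) and edgeR without robust estimation (0.05), and without control replicate 1 (0.0961) or 3 (0.152) or knockdown replicate 1 (0.113) or 3 (0.0974).

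Among the inhibitors inside the cell, AXIN2 fell and the other 3 were not called. AXIN2, the scaffold of the destruction complex that is used as a readout of canonical signalling, had 119, 112 and 113 CPM in control and 88.2, 84.3 and 86.4 CPM in knockdown libraries (log2 fold change -0.41 with SE 0.0393; edgeR adjusted p = 3.71e-07). Every knockdown library lay below every control library. AXIN1, its constitutive counterpart, had 41.9, 36.9 and 37.9 CPM and 42.3, 40.6 and 39.2 CPM, which overlapped (log2 fold change 0.06 with SE 0.0551; edgeR adjusted p = 0.439). NKD1, which binds Dishevelled, had 121, 119.7 and 120.0 CPM and 117, 127 and 123 CPM, also overlapping (log2 fold change 0.03 with SE 0.0389; edgeR adjusted p = 0.656). NKD2 was scarce, with 33 to 61 counts per library and a log2 fold change of -0.30 (SE 0.209; edgeR adjusted p = 0.326).

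The nuclear factors LEF1 and TCF7, DNA-binding partners of beta-catenin, went in opposite directions. LEF1 rose from 74.4, 70.2 and 74.8 CPM in control to 107, 113 and 102 CPM in knockdown libraries (log2 fold change 0.56 with SE 0.0448; edgeR adjusted p = 4.36e-08). LEF1-AS1, whose exons overlap LEF1 on the opposite strand, rose from 1.13 to 1.73 CPM (log2 fold change 0.60; edgeR adjusted p = 0.0326), and reads of the pair cannot be told apart if strand was not used. TCF7 had 38.7, 36.3 and 36.9 CPM and 31.3, 34.7 and 33.6 CPM (log2 fold change -0.17 with SE 0.0532; edgeR adjusted p = 0.0255). The TCF7 call was kept in 11 of 15 alternative analyses and lost with DESeq2's Wald test (adjusted p = 0.0653) and without control replicate 1 (0.0972) or 3 (0.0576) or knockdown replicate 1 (0.0896).

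A further 3 lists of pathway genes, chosen with earlier results of these data known, were read beside the members. Of 34 tested genes of the pathway core, 10 were higher and 4 lower (41.2% called, beside 28.2% of all genes), with none changed 2-fold. WLS, the carrier that takes Wnt proteins to the cell surface, rose from 201 ± 4.07 to 327 ± 5.55 CPM, and CTNNBIP1, an inhibitor of beta-catenin binding to TCF, from 78.7 ± 2.21 to 124 ± 1.59 CPM (SD, n = 3), which are log2 fold changes of 0.71 and 0.65. CTNNB1, which encodes beta-catenin, rose from 766 ± 6.35 to 953 ± 42.3 CPM, and TCF7L1, a TCF that mostly represses, from 35.2 ± 1.23 to 49.8 ± 4.07 CPM (log2 fold changes 0.31 and 0.50). For these 4 genes edgeR's adjusted p was at most 4.47e-06. Without knockdown replicate 2 the core list had 9 calls in place of 14, and with upper-quartile scaling it had 9 higher and 7 lower.

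Of 20 tested genes known as Wnt targets in some tissue, 6 were higher and 8 lower (70% called, beside 28.2% of all genes). Their median log2 fold change was -0.0053. The most strongly called were TNFRSF19, which fell from 98.0 ± 4.44 to 50.8 ± 1.53 CPM, SP8, from 12.6 ± 0.448 to 3.74 ± 0.0305 CPM, CDX2, from 11.4 ± 0.639 to 3.94 ± 0.407 CPM, and GBX2, from 30.5 ± 1.17 to 17.5 ± 0.587 CPM (SD, n = 3), each with an edgeR adjusted p of at most 1.01e-08. Among those called higher, SP5, a transcription factor often used as a readout of the canonical branch, rose from 17.2 ± 1.48 to 28.3 ± 1.81 CPM (log2 fold change 0.71; edgeR adjusted p = 5.33e-07). NOTUM, a secreted enzyme that inactivates Wnt proteins, was not called, at 10.8 ± 0.690 and 11.2 ± 0.432 CPM (log2 fold change 0.04 with SE 0.0791). FGF8, a signal of the primitive streak and other organizing centres, rose from 0.397 ± 0.119 to 2.57 ± 0.213 CPM (log2 fold change 2.67; edgeR adjusted p = 1.97e-07). TBXT, a target in mesoderm, had 0 counts in every library. Of 18 tested receptors, co-receptors and polarity genes outside the members, 6 were higher and 4 lower (55.6% called, beside 28.2% of all genes). RECK, a partner of WNT7 signalling, DAAM2, a formin that binds Dishevelled, and GPC4, a cell-surface glypican, rose with log2 fold changes of 0.61, 0.63 and 0.37, and the polarity cadherin CELSR2 fell by 0.43 (edgeR adjusted p at most 3.63e-06).

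**Figure D4:**
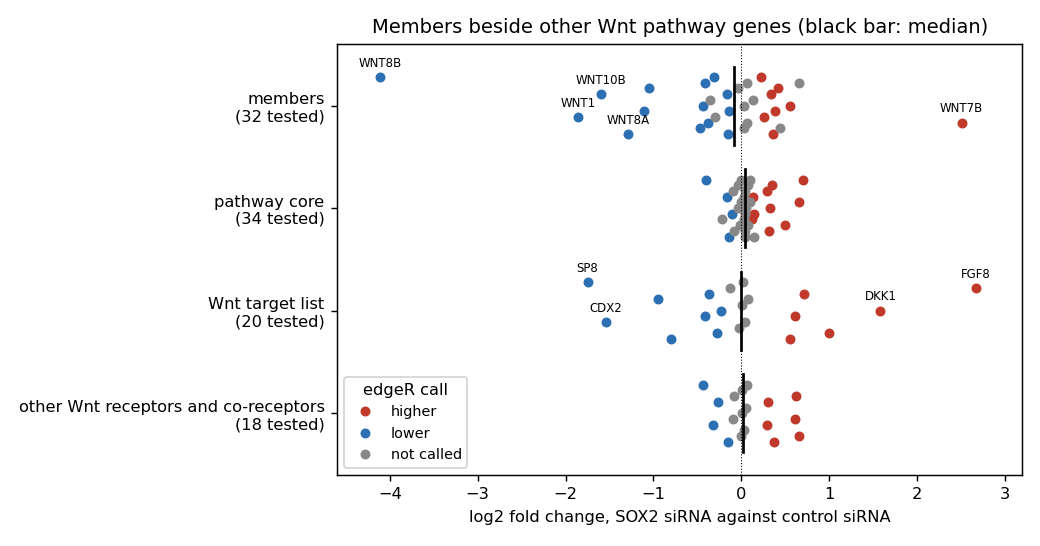
Log2 fold change of knockdown against control (x axis) for the tested members and for 3 lists of other Wnt pathway genes (y axis), 1 point per gene, coloured by edgeR call, with a black bar at the list's median and names beyond 1.2 in size. The pathway core stays within 1 of 0, while members and targets reach beyond -1.5 and 2.5.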

How the data were processed

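The 6 libraries of PA1 cells were made from poly(A) RNA and sequenced. The deposited values are raw counts per gene symbol, 1 column per library, mapped through the identifier in each library's description. The submitters' processing notes name bcl2fastq 2.20.0, STAR 2.7.3a, Salmon 0.14.1, DESeq2 1.28.1 and the build GRCh38.p13, without roles. Which tool made the counts, the strand setting and the annotation are not given in the sources used here.

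Genes were kept by edgeR's filterByExpr (minimum count 10), scaled by TMM (factors 0.991 to 1.01) and tested with edgeR 4.0.16 (glmQLFit with robust=TRUE, glmQLFTest; R 4.3.3), SOX2 siRNA against control siRNA, with Benjamini-Hochberg adjustment over all genes tested. CPM use the scaled library sizes, and standard errors come from the log2 fold change and its F statistic. The members and lists were chosen with earlier results of these data known. Named genes are all called members, the uncalled member of highest mean CPM per role, and up to 4 called genes per other list by smallest p; PRSS23, LEF1-AS1, FGF8, SP5, NOTUM, TBXT, marker genes, neighbouring genes and further uncalled or untested members were added after their values were seen. Transcript lengths and coordinates are from GENCODE 29 (46 of 46 members matched by symbol), upstream sequences from RefSeq. A further marker list is not reported here.

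Alternatives were other scalings, filters, DESeq2 1.42.0, limma-voom 3.58.1, robust=FALSE, each library left out, and the replicate number as a block. On simulated data with 17293 genes tested, changes of 1.25-, 1.5-, 2- and 4-fold were recovered in 52%, 64%, 80% and 100% of cases, and 4.52% of calls were false. The simulated spread followed the fitted trend with level, without a spread particular to each gene. Far fewer genes were changed than were called in the data, so these shares need not hold for the data. Computations also used Python 3.11.15, pandas 2.3.3, scipy 1.17.1 and matplotlib 3.10.9.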

Additional observations from a re-analysis of the deposited data

How the results depend on the processing

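Over 15 alternatives the number of members called ranged from 18 to 22 of those tested, and 18 of the 22 called members were called in each alternative that tested them. The 4 others were LRP5, TCF7, WNT5B and ZNRF3. Of 477 member values, 458 kept their call, 18 lost it, 1 gained it (WNT11) and 0 changed direction with a call. SOX2 stayed called throughout. The members' median log2 fold change was -0.0879, and -0.0396 when at least 10 counts were required in every library, a filter that leaves 29 members. Leaving out 1 library moved it between -0.129 and -0.0503, and moved the count of core genes called between 9 and 14; the cause was not tested. With median in place of longest transcript lengths, chosen after seeing the data, WNT10B made up 29.5% of the ligand sum in control in place of 26.3%, and WNT5A 15.9% in place of 17.4%, and the order of the ligands changed. The replicate numbers are not said to mark a shared batch, and same-numbered libraries deviated with correlations of 0.0868, -0.0377 and -0.0311 across genes, so they were not taken as pairs. With the replicate block, the 22 called members were all called again and no other was added, and the counts were 14 core genes, 15 targets and 10 other receptors, at a median of -0.088 for members. Depth limits the 14 members that did not pass the filter, with at most 11 counts in any library. Without a filter beyond 1 count, 12 of them were tested and WNT4 alone was called, with groups that overlapped (edgeR adjusted p = 0.0142).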
